A study of Mus musculus with 4 samples.

Results

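The comparison described here set mouse embryonic stem cells (ESCs) rescued with an m6A-binding mutant of YTHDF2 against the same kind of cells rescued with wild-type YTHDF2. Its members were the genes that averaged 50 reads or more across all 4 libraries, which gave 13995 of the 50559 genes in the table. The member with the lowest mean stood at 50 reads and the highest gene left out at 49.75 reads. All libraries came from E14, a widely used mouse ESC line, and RNA was selected for poly(A) before sequencing in pairs. Both rescue libraries carried a hairpin against *Ythdf2*, and each also carried a construct for YTHDF2, wild-type in shYthdf2+DF2WT and mutated in its m6A-binding site in shYthdf2+DF2Mut. The remaining libraries carried an empty vector, with the *Ythdf2* hairpin in shYthdf2+EV and with a scrambled hairpin in shScram+EV. In the text below these are the wild-type rescue, the mutant rescue, the knockdown and the scrambled control, and strings of 4 read counts run from scrambled control to knockdown, wild-type rescue and mutant rescue. Per the methods of the study, the hairpins were delivered by lentivirus and selected with puromycin as stable lines, on gelatin in medium with serum replacement and LIF. The mutated residues and the promoter of the constructs are not given in the sources used here.

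N6-methyladenosine (m6A) is laid on messenger RNA during transcription by a METTL3-METTL14 complex, mostly within a short motif and most densely near stop codons. YTHDF2 is a cytoplasmic reader whose YTH domain holds the methylated base, and whose N-terminal part recruits the CCR4-NOT deadenylase, so that bound transcripts lose their poly(A) tail and are degraded. A construct that cannot hold m6A leaves the protein present but separates it from methylated transcripts. In ESC cultures a small part of the cells passes through a state that resembles the 2-cell embryo, marked by *Zscan4* and other genes of zygotic genome activation.

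There was 1 library per group, so no difference has a replicate check, no p-value was computed, and every value compares 2 libraries and not 2 conditions. Total counts were between 31533129 and 35742335 reads, and 26123 to 26700 genes had a read. Log2 ratios are of TMM-scaled counts, and the 95% intervals after them cover counting error only. A gene was called when its ratio was at least 1.5-fold. The summed ESC markers (7 of 7 detected) stood between 4128 and 4668 CPM (counts scaled to a library of equal size), and the summed feeder markers at 15.0 CPM in each rescue library. Of the 9 feeder markers *Lum*, *Dcn* and *Prrx1* were at 0, while *Thy1* had 317 reads in the wild-type and 243 in the mutant rescue, *Twist1* 120 and 130, *Col1a1* 50 and 87 and *Col1a2* 2 and 14. In the longer feeder list 4 genes were members, of which 1 was called higher, with a median log2 ratio of 0.34. By the corrected ratio described below 3 were called higher, where 5.97% of members were, with a median of 0.67. This list summed to 16.5 CPM with the wild-type and 16.9 CPM with the mutant. Summed markers of mesoderm and neural cells were at 73.7 CPM in shYthdf2+DF2WT and 103 CPM in shYthdf2+DF2Mut, with *T* at 0, and the 7 of primitive endoderm at 12.6 and 24.1 CPM. The longer primitive endoderm list, which holds more abundant genes, summed to 816 and 796 CPM, and the trophectoderm markers to 30.4 and 37.3 CPM. The Y-linked genes *Ddx3y*, *Eif2s3y*, *Uty* and *Kdm5d*, 4 in all, had a sum of 2 in the scrambled control, 604 in the knockdown, 85 in the wild-type rescue and 528 in the mutant rescue. Whether these shifts take part in any result below was not tested.

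The target of the hairpin was read first. *Ythdf2* had 2806 reads in the scrambled control, 662 in the knockdown, 7661 in the wild-type rescue and 6925 in the mutant rescue. Both constructs thus stood above the scrambled control, and the mutant was lower than the wild-type by a log2 ratio of -0.10 (-0.16 to -0.03). Its paralogs, cytoplasmic readers with the same kind of YTH domain, were higher with the mutant. *Ythdf3* (3985, 6190, 3711 and 5317 reads) stood at a log2 ratio of 0.57 (0.48 to 0.65) and *Ythdf1* (3855, 5992, 4325 and 5567 reads) at 0.41. By the ratio corrected for GC content and length, described below, *Ythdf3* stood at 0.24 and *Ythdf1* at 0.36. Neither paralog reached 1.5-fold.

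Over all members the mutant to wild-type log2 ratio had quartiles of -0.29 and 0.25. In shYthdf2+DF2Mut 1062 genes (7.59% of members) were called higher and 1440 (10.3%) lower than in shYthdf2+DF2WT. At 2-fold the numbers were 321 (2.29%) and 392 (2.8%), and with the correction described below 248 (1.84%) and 235 (1.75%). The ratio followed base composition and length. GC content was taken from the longest transcript of the same symbol and was known for 13465 members. Across these genes its Spearman coefficient with the ratio was -0.457, and that of exon length, over 13995 members, was 0.311. Genes are not independent replicates and share the same pair of libraries, so the coefficients are descriptions only.

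When the genes were cut into 10 bins of GC content, the median log2 ratio fell in every step, from 0.29 in the bin of lowest GC (30.965 to 41.436%) to -0.30 in the bin of highest GC (57.812 to 74.409%). In the lowest bin 18.1% of genes were called higher and 1.63% lower with the mutant. In the highest bin these shares were 2.08% and 23.5%. Length had a weaker trend in the other direction, from a median of -0.26 among genes with at most 1829 bases of exon to 0.15 among those with at least 6954. The library with the larger departure from the scrambled control was the wild-type rescue, whose bins ran from -0.16 at lowest GC to 0.22 at highest, with a Spearman coefficient of 0.448. The mutant rescue ran from 0.11 to -0.09 against the same control, and the knockdown from 0.074 to 0.032. With 1 library per group, an effect of the constructs on GC-rich transcripts and a difference between the library preparations cannot be told apart.

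**Figure D1:**
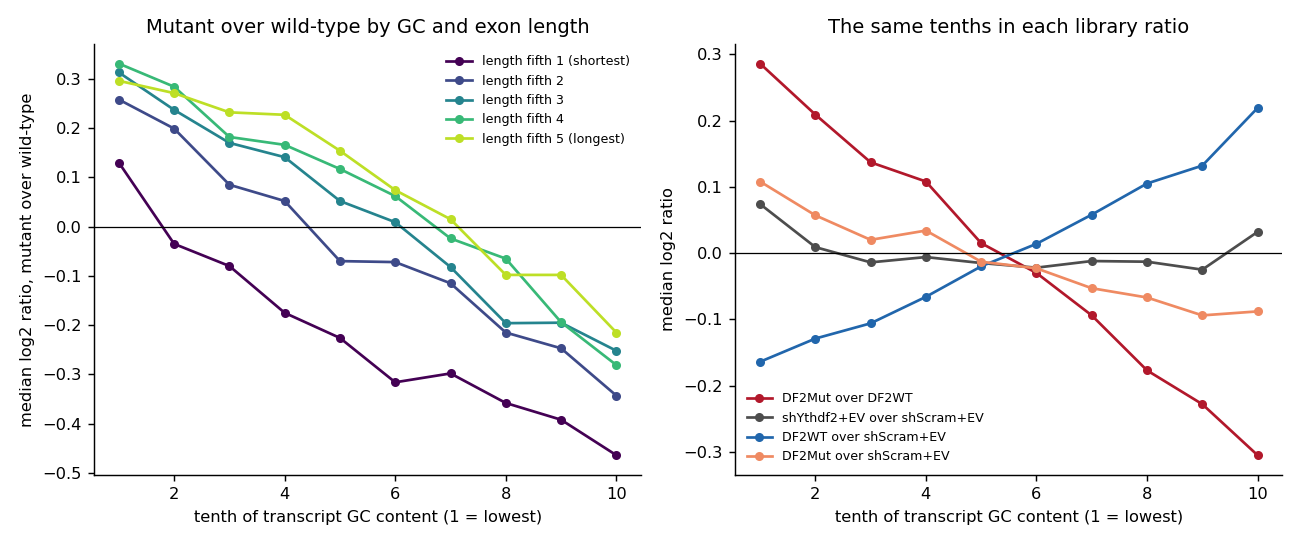
Median log2 ratio by 10 equal bins of transcript GC content on the x axis, at left for mutant over wild-type rescue with 1 line for each of 5 exon-length bins, at right over all lengths for 4 library pairs. Mutant over wild-type falls from 0.29 to -0.30 along GC content, while the knockdown stays near 0 throughout.

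A corrected ratio was therefore also computed for the members with a GC value, and it is given below for many lists and some genes. It is the log2 ratio minus the median of the members in the same 1 of 10 GC bins and, within that, the same 1 of 5 length bins. The correction brought the Spearman coefficients to -0.022 for GC content and 0.014 for length. It left 804 genes (5.97% of 13465) called higher and 885 (6.57%) called lower, so that the excess of lower genes was mostly gone. The correction also removes any effect of the mutation that itself runs along GC content or length.

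The group with the largest positive median was that of the 2-cell genes, the program on which the study centred. Of 68 genes listed, 60 were in the table and 48 were members. With the mutant 47 of the 48 were higher, and 42 (87.5%, against 7.59% of all members) were called higher. None was called lower. The median log2 ratio was 1.08 and hardly moved under the correction, at 1.13. Summed over the list, the level was 940 CPM in the scrambled control, 2323 in the knockdown, 1055 in the wild-type rescue and 2070 in the mutant rescue, so the mutant library stood near the knockdown and the wild-type library near the scrambled control. The study displays many of these genes for these same libraries, and the list was written with earlier results known, so its direction is not independent evidence.

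The *Zscan4* genes, which encode SCAN-domain zinc finger proteins tied to telomere maintenance in ESCs, were called higher in 6 of 6 cases, with a median log2 ratio of 1.65. Their summed level was 162, 554, 172 and 515 CPM in the same order. *Zscan4f* (mm39 chromosome 7, 11131842 to 11136245) had 356, 1315, 302 and 1326 reads, the largest ratio of the cluster at 2.18 (1.93 to 2.45). *Zscan4d*, its most abundant member, had 1463, 6266, 1792 and 4814 reads and a ratio of 1.48 (1.36 to 1.59). The copies are nearly identical and reads placed at several sites were not counted, so the assignment to single members is uncertain and the sum is the firmer value.

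The 5 *Usp17l* genes, which encode deubiquitinases, were all called higher as well, from a log2 ratio of 1.04 to 1.38, and their sum went from 69.0 CPM with the wild-type to 161 CPM with the mutant. Members of the *Tdpoz* and *Tcstv* clusters were higher in 3 of 3 cases. *Tdpoz3*, a BTB-domain gene, had 107, 377, 96 and 308 reads, a ratio of 1.73 (1.25 to 2.23). Of 4 *Pramel* genes 3 were called higher. *Pramel13*, the most abundant of these, had 1492, 2416, 1743 and 2235 reads and missed the fold at a ratio of 0.41 (0.28 to 0.54).

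Among the other 29 genes of the list 24 were called higher. *Zfp352*, a zinc finger gene of the 2-cell stage, had 109 reads in the scrambled control, 422 in the knockdown, 97 in the wild-type rescue and 314 in the mutant rescue, a ratio of 1.74 (1.27 to 2.24). *Tmem92*, a membrane protein gene, had 234, 1492, 431 and 1325 reads, a ratio of 1.67 (1.45 to 1.90). In both genes the wild-type and scrambled libraries were low and the knockdown and mutant libraries high, with 1 library each. *Eif1a*, the most abundant gene of the list and a translation initiation factor, had the smallest positive ratio, 0.28, and a corrected value of 0.027. *Nat8f2*, an acetyltransferase-family gene, was the one member of the list that was lower, with 79 reads with the wild-type and 59 with the mutant and an interval that holds 0 (-1.11 to 0.35). *Dux*, the homeobox gene upstream of much of this program, had no entry under that symbol. *Duxf3* was under the count minimum, with 10, 46, 16 and 18 reads in the 4 libraries, and at this depth no difference between the rescues was detectable. *Duxbl1*, a related homeobox gene, was a member with 67, 231, 109 and 173 reads and a ratio of 1.09 (0.61 to 1.58). The Y-linked reads, at 85 with the wild-type and 528 with the mutant, moved in the same direction as the 2-cell genes, and their part in the result was not tested.

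Single genes were then named by a fixed rule, the 15 largest ratios in each direction among members that averaged 200 reads or more, with clone names passed over. Of the 15 genes most raised with the mutant, 9 were on the 2-cell list and a further 3 were *Zscan4* pseudogenes or *Pramel18*. The other 3 were *Slc7a11*, *Ccnd2* and *Lpar4*. *Slc7a11* (mm39 chromosome 3, 50319385 to 50403947), the cystine-glutamate antiporter that feeds glutathione synthesis, had the largest ratio of all. It had 213 reads in the scrambled control, 309 in the knockdown, 13 in the wild-type rescue and 277 in the mutant rescue, a log2 ratio of 4.41 (3.35 to 5.86) and a corrected value of 4.12. The wild-type rescue stood alone here, far below the scrambled control as well, and the other 3 libraries lay together.

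*Ccnd2*, the cyclin D2 gene that drives entry into S phase, had 45, 349, 95 and 327 reads, a ratio of 1.83 (1.36 to 2.33). *Lpar4*, a receptor for lysophosphatidic acid, had 104, 324, 100 and 283 reads and a ratio of 1.55 (1.08 to 2.05). For both, the knockdown and mutant libraries were high and the others low. *Crmp1*, which encodes a microtubule-linked protein of growing axons, entered the 15 largest by the corrected ratio, at 1.58, with 295, 1153, 383 and 970 reads. Side by side with the knockdown, a comparison that shares no library with this one, 14 of the 15 genes were also called higher in shYthdf2+EV over shScram+EV, against 8.8% of members. *Slc7a11* was the exception, at 0.35 (-0.01 to 0.72).

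**Figure D2:**
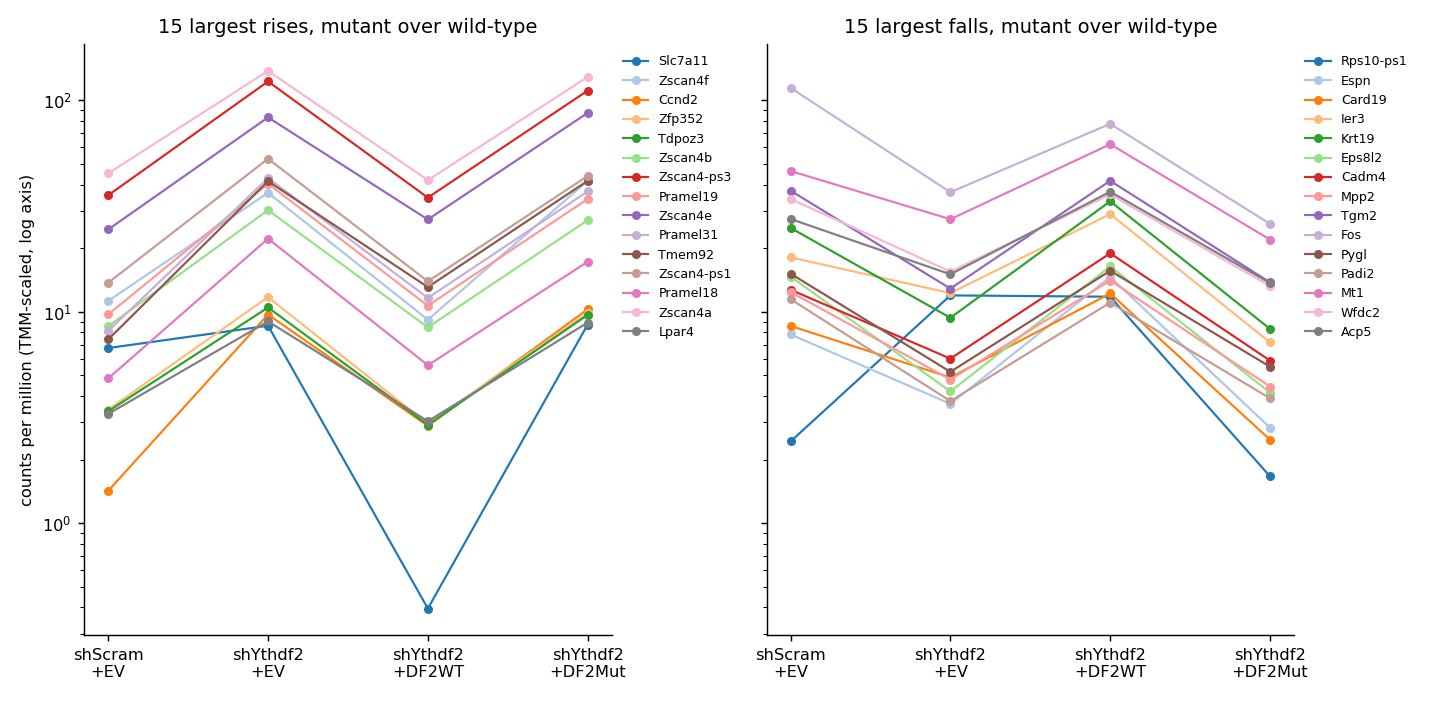
Level in CPM (TMM-scaled, log axis) in each of the 4 libraries on the x axis, at left for the 15 largest rises and at right for the 15 largest falls of mutant over wild-type rescue, 1 line per gene. Most rises are low in shScram+EV and shYthdf2+DF2WT and high in the other libraries, *Slc7a11* drops in shYthdf2+DF2WT alone, and most falls have the reverse shape.

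The 15 genes most lowered with the mutant held none from the 2-cell list. *Espn*, which encodes the actin-bundling protein espin, had 247 reads in the scrambled control, 132 in the knockdown, 481 in the wild-type rescue and 90 in the mutant rescue, a log2 ratio of -2.36 (-2.86 to -1.90). *Eps8l2*, a regulator of actin bundles, had 464, 151, 540 and 132 reads, a ratio of -1.98 (-2.39 to -1.59). *Krt19*, a keratin of simple epithelia, had 788, 337, 1097 and 264 reads, a ratio of -2.0 (-2.29 to -1.73). In these 3 genes the wild-type rescue was the highest of the 4 libraries and the mutant rescue the lowest. Their corrected ratios were -2.08 for *Espn*, -1.78 for *Eps8l2* and -1.61 for *Krt19*.

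The cell adhesion gene *Cadm4* had 402, 216, 623 and 187 reads and a ratio of -1.68. *Mpp2*, a membrane scaffold gene, had 392, 172, 463 and 141 reads and a ratio of -1.66. *Tgm2*, which encodes a protein-crosslinking transglutaminase, had 1183, 463, 1372 and 438 reads, a ratio of -1.60 (-1.82 to -1.38). *Card19* had 271, 176, 402 and 79 reads and a ratio of -2.29, and *Mt1*, a metallothionein, had 1465, 986, 2043 and 699 reads and a ratio of -1.50. The remaining falls were *Padi2*, *Pygl*, *Wfdc2*, *Acp5*, *Ier3*, *Fos* and *Rps10-ps1*, with ratios down to -2.81 for the last.

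Of the 15, 13 were called lower in the knockdown over the scrambled control (7.92% of members were). *Card19* is one of these, at -0.81. The pseudogene *Rps10-ps1* went the other way there, with 77, 430, 388 and 53 reads, and *Ier3* missed the fold at -0.56. *Fos* and *Pygl* lie on chromosome 12, whose members with a GC value had a corrected median of -0.21, while the other 18 autosomes lay between -0.035 and 0.033. The chromosome's median was also low on knockdown, at -0.27. The ratio of *Fos*, -1.57 (-1.74 to -1.41), was larger than that shift, and the part the chromosome takes in it was not tested. Without chromosome 12, 764 genes (5.9%) were called higher and 816 (6.3%) lower after the correction.

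The RNA letters around which m6A is most often laid were then looked for in these named genes. GGACT, the commonest form of the m6A motif, was searched on the transcript strand of the longest coding GENCODE vM21 transcript, in the 400 bases centred on the stop codon. Of the named rises, 8 had such a window and 1 held a match. Of the named falls, 9 had a window and 5 held a match, of which the 4 with the largest ratios are shown. The matches are printed so that the position of the motif against the stop codon can be read for the genes with the largest ratios. All are on mm10, read 5′ to 3′ on the strand of the gene, and capitals mark the motif.
Slc7a11, chr3:50372204-50372224, minus strand: ttgatgatGGACTaaaggaat
Ier3, chr17:35822248-35822268, plus strand: gagtcctcGGACTatgcgctg
Cadm4, chr7:24503804-24503824, plus strand: ggagacagGGACTtaaggacc
Mpp2, chr11:102059196-102059216, minus strand: ttttccctGGACTgcagttcc
Fos, chr12:85476604-85476624, plus strand: ggcctcaaGGACTtgcaagca
The match of *Ier3* lies in the coding part, 52 bases before the stop codon. Those of *Slc7a11*, *Mpp2*, *Fos* and *Cadm4* lie in the 3′ untranslated part, 88, 111, 156 and 193 bases after it. A match is a string of letters and not a methylated site.

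Over all members with a window of this kind, 4538 of 11125 (40.8%) held a GGACT near the stop codon. The share was 33.1% (181 of 547) among genes called higher after the correction and 43.6% (267 of 612) among those called lower. Among the 2-cell genes it was 19.4% (6 of 31). Motif density over the whole transcript had little relation to the corrected ratio, with a Spearman coefficient of -0.039 and medians from 0.017 to -0.015 over 5 bins of density. The uncorrected coefficient was -0.132. Median GC content rose from 47.7% in the bin of lowest density to 52.95% in that of highest density.

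Exon junctions, beside which the exon junction complex is known to keep m6A low, gave a steeper pattern. In the bin of fewest junctions per kilobase (0 to 0.991), 11.6% of genes were called higher and 7.32% lower by the corrected ratio. The bin of most junctions (4.802 to 15.674) held 3.6% and 7.02%. When the genes were limited to named protein-coding genes outside the 2-cell list and repeated families, the shares were 7.73% higher with fewest junctions and 3.03% higher with most. The median corrected ratio in this limited set went from 0.049 to -0.04, so the shift of the typical gene was small. Whether a low junction density or another property of these genes goes with the ratio was not tested.

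**Figure D3:**
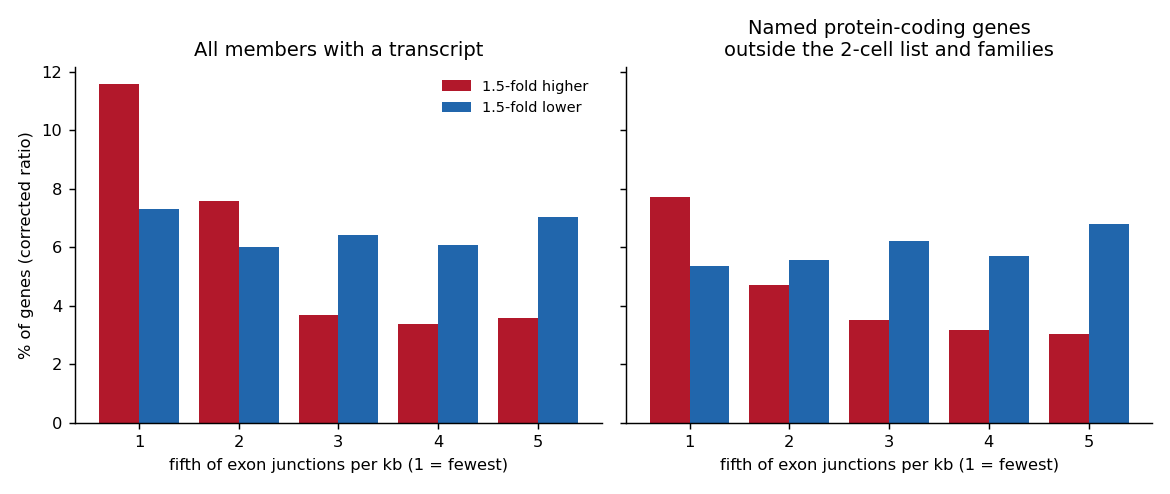
Percent of genes called at least 1.5-fold higher (red) or lower (blue) with the mutant by the corrected ratio, in 5 bins of exon junctions per kilobase from fewest to most, for all members with a transcript (left) and for named protein-coding genes outside the 2-cell list and repeated families (right). The share called higher falls from 11.6% to 3.6% at left and from 7.73% to 3.03% at right, while the share called lower changes little.

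Factors that write, read or carry out m6A-dependent decay had no member past 1.5-fold in either direction. Among 11 writers and erasers the median log2 ratio was 0.05, and *Mettl3*, the catalytic subunit, had 1230, 1262, 1102 and 1000 reads, with an interval that holds 0 (-0.27 to 0.09). Of 15 members of the CCR4-NOT deadenylase and its TOB and BTG partners, 13 were higher, with a median of 0.29. *Cnot1*, the scaffold of the complex, had 29444, 28330, 25173 and 29983 reads and a ratio of 0.30 (0.27 to 0.34). The correction took the median of the writers and erasers to -0.10, that of CCR4-NOT to 0.046 and *Cnot1* to 0.069. Of 20 factors of decapping, 5′ decay and nonsense-mediated decay, 12 were higher and 8 lower, with *Upf2* at the top at 0.48 and *Lsm1* at the bottom at -0.41. Among 12 readers the median was 0.13, with *Igf2bp2* the lowest at -0.39 (-0.47 to -0.30). The correction took the median of the readers to -0.016.

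Cytosolic ribosomal protein genes stood in the other direction. All 82 cytosolic ribosomal protein genes were lower with the mutant, 44 of them (53.7%, against 10.3% of members) past 1.5-fold, with a median log2 ratio of -0.61. Summed over the list the level was 39015 CPM in the scrambled control, 41247 in the knockdown, 46835 in the wild-type rescue and 32248 in the mutant rescue, so the wild-type rescue was the highest library and the mutant rescue the lowest. *Rplp1*, an acidic protein of the ribosomal stalk, had 12883, 19353, 20084 and 9927 reads and a ratio of -0.97 (-1.02 to -0.92). *Rps14*, of the small subunit, had 16576, 18045, 23511 and 11651 reads, a ratio of -0.96. These transcripts are short, with a median exon length of 808 bases and a GC content of 51.0%. The corrected median was -0.35 with 9 of 82 genes called lower, where 6.57% of members were. Many have processed pseudogenes, to which reads may also be placed. Translation initiation factors did not share this direction as a group, with 14 higher and 23 lower of 37, 1 (2.7%) called each way and a median of -0.12. The correction took the median to -0.036 and left 2 called lower and none higher.

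Other lists of short transcripts were also lower at the median, by less than the cytosolic ribosomal proteins before the correction. Of 77 nuclear genes for the respiratory chain 72 were lower and 14 (18.2%, against 10.3% of members) called lower, with a median of -0.43. After the correction the median was -0.17 and 2 were called lower. *Cox4i1*, a subunit of cytochrome c oxidase, had 8544, 11471, 11787 and 7378 reads and a ratio of -0.63 (-0.69 to -0.57). The 78 mitochondrial ribosomal protein genes had a median of -0.17, and the 31 proteasome genes of -0.14 with none called. Both came to within 0.03 of 0 under the correction, at -0.028 and 0.016. Of the 13 protein genes of the mitochondrial genome 11 were lower and 4 called lower (30.8%, against 10.3% of members), *COX2* among them with 11200, 10238, 11775 and 6262 reads. The summed mitochondrial share of counts differed less, at 6.34% with the wild-type and 6.14% with the mutant, and *COX1*, the most abundant of these genes, had a ratio of 0.11. Noncoding host transcripts of small nucleolar RNAs were lower in 15 of 17 cases and called lower in 7 (41.2%, against 10.3% of members), with a median of -0.50. After the correction the median was -0.43, a larger shift than the -0.35 of the cytosolic ribosomal proteins, and 4 of 16 were called lower. *Zfas1* had 1018, 992, 1201 and 613 reads, a ratio of -0.92 (-1.12 to -0.72), and *Snhg8* had 193, 283, 312 and 140, a ratio of -1.10. *Snhg14*, a very long transcript of low GC, was the one called higher, at 0.96. Counting did not use the strand, so a host and transcripts antisense to it cannot be told apart.

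**Figure D4:**
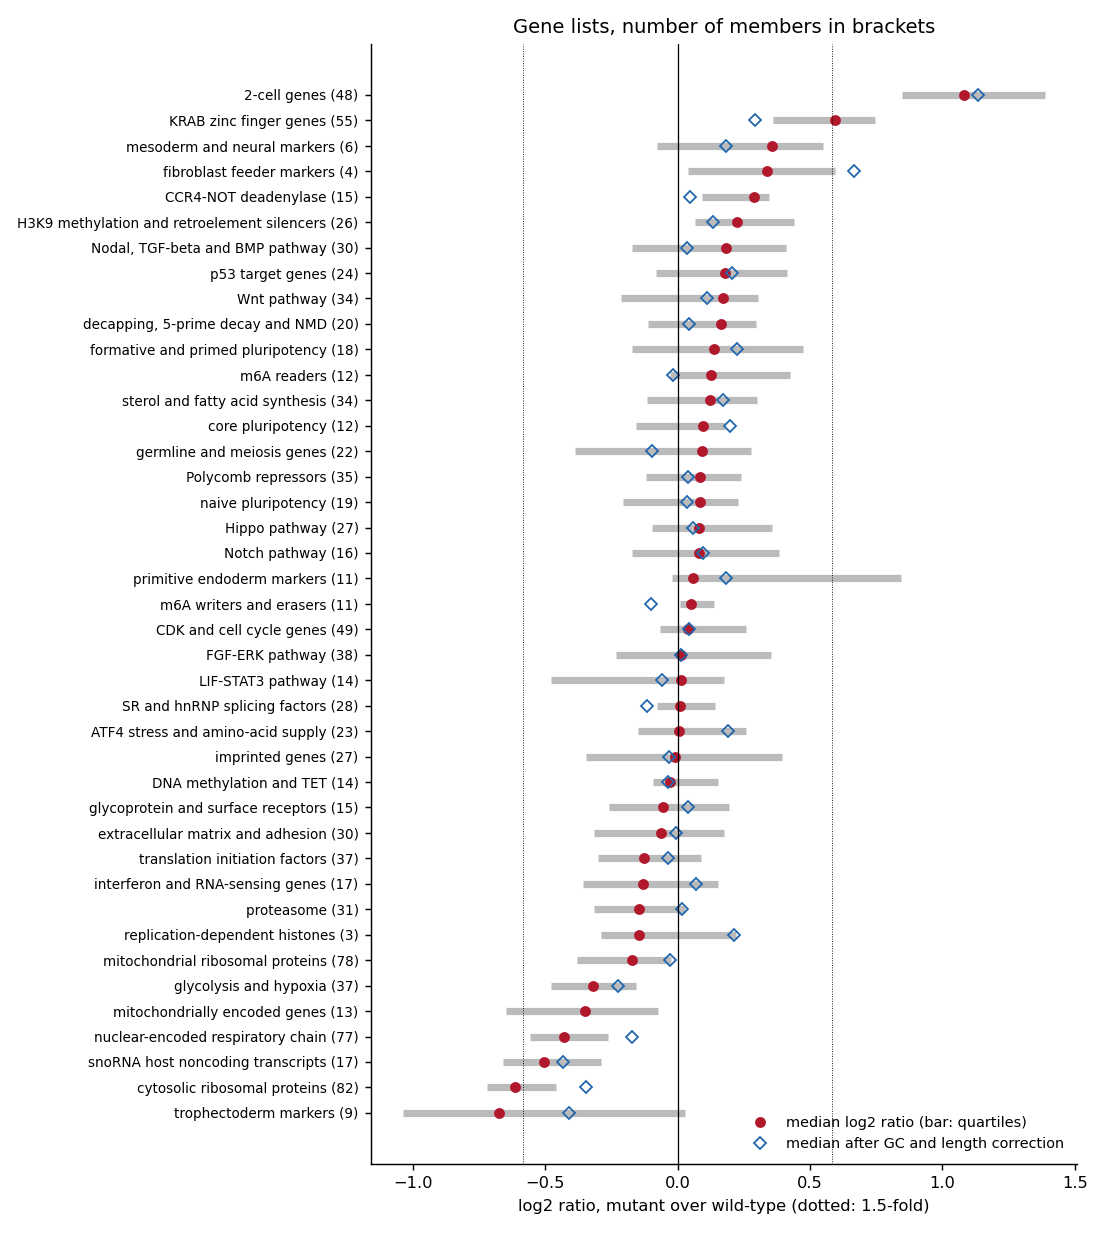
Median log2 ratio of mutant over wild-type rescue for the 41 gene lists (red points, grey bars for the quartiles, number of members in brackets) and the median corrected for GC content and exon length (open blue diamonds), with dotted lines at 1.5-fold. The 2-cell genes lie farthest right with both values, while the ribosomal protein and KRAB zinc finger lists move toward 0 under the correction.

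KRAB zinc finger genes, which encode repressors that bring silencing to retroelements, were the group with the second largest positive median. Of 55 members 52 were higher and 28 (50.9%, against 7.59% of members) called higher, with a median log2 ratio of 0.60. Their transcripts were among the poorest in GC, with a median of 38.6%, and the corrected median was 0.29 with 7 of 54 called, where 5.97% of members were. *Zfp947* had 121, 214, 77 and 191 reads, a ratio of 1.35 (0.81 to 1.94) and a corrected value of 1.10. *Zfp936* had 1743, 2777, 1573 and 2920 reads, a ratio of 0.94 (0.82 to 1.07). *Zfp990*, the most abundant, had a ratio of 0.76 and a corrected value of 0.50. Members lie in clusters of like sequence, with 16 on chromosome 17 (median 0.66) and 11 on chromosome 4 (0.61), so single counts are uncertain.

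Of 26 genes for H3K9 methylation and retroelement silencing, with which KRAB proteins work, 21 were higher and 4 (15.4%, against 7.59% of members) called higher. *Resf1*, a partner of the H3K9 methyltransferase SETDB1, had 5404, 7627, 4594 and 7631 reads, a ratio of 0.78 (0.71 to 0.86). *Atrx*, a chromatin remodeller, had a ratio of 0.65, and *Atf7ip*, which stabilises SETDB1, of 0.60. None remained called after the correction, under which *Resf1* was at 0.45. *Trim28*, the corepressor that KRAB domains bind, had 44347, 50539, 46532 and 47244 reads and a ratio of 0.07. Among 35 Polycomb genes 2 were called in each direction (5.71%), below the 7.59% and 10.3% of members, and 1 higher and 3 lower after the correction. *Bmi1* was higher at 0.98 (0.77 to 1.19) and *Rybp* at 0.59, and *Phf19* was lower at -0.89 (-1.11 to -0.67) and *Ezh1* at -0.78. DNA methylation and TET genes had no member past the fold.

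Pluripotency factors had no common direction. *Pou5f1* had 25581 reads in the scrambled control, 29882 in the knockdown, 28913 in the wild-type rescue and 25505 in the mutant rescue, a ratio of -0.13, and *Nanog* had 27227, 30896, 26766 and 28766, a ratio of 0.15. Of 12 core genes 1 was called in each direction (8.33%, against 7.59% of members higher and 10.3% lower). *Dppa2*, which helps to activate *Dux* and other 2-cell genes, was higher with 6405, 10480, 5732 and 9482 reads, a ratio of 0.78 (0.71 to 0.84) and a corrected value of 0.81. *Dppa4*, which acts with it, stood at 0.030 (-0.05 to 0.11). *Dppa5a* was lower with 23294, 33649, 33881 and 18599 reads, a ratio of -0.82. Of 19 naive genes *Gbx2* was called higher at 0.67 (5.26%, against 7.59% of members). *Socs3*, *Bcl3* and *Tcl1*, the last on chromosome 12, were called lower (15.8%, against 10.3% of members). After the correction 1 naive gene was called each way. Formative and primed genes had 3 of 18 called higher (16.7%, against 7.59% of members), *Lef1* at 1.53 (1.00 to 2.11), *Cdh2* at 1.25 and *Sox3* at 0.64, and none called lower. After the correction 5 were called higher.

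Lineage lists differed in direction, at low levels of most genes. Of 9 trophectoderm members 5 (55.6%, against 10.3% of members) were called lower, and 3 lower and 1 higher after the correction. This list summed to 227 CPM with the wild-type and 160 CPM with the mutant, against 30.4 and 37.3 CPM for the shorter marker list above. *Krt8*, the keratin partner of *Krt18*, had 1217, 670, 1193 and 553 reads, a ratio of -1.06 (-1.27 to -0.85), *Krt18* had a ratio of -0.80, and *Esx1*, a homeobox gene of the placenta, had 1223, 550, 976 and 460 reads, a ratio of -1.03. The defining factor *Eomes* was not among the genes called lower, with 668 reads with the wild-type and 961 with the mutant. Of 11 primitive endoderm members 4 were called higher (36.4%, against 7.59% of members), and 3 after the correction. *Dab2*, an endocytic adaptor, had 99, 237, 81 and 265 reads, a ratio of 1.75 (1.24 to 2.31), and *Gata6*, a factor that sets this lineage, had 85, 163, 69 and 143, a ratio of 1.10 (0.49 to 1.73). *Gata4*, which works with it, had 72 and 71 reads in the wild-type and mutant rescues. In bulk RNA, fewer cells of a type and less RNA per cell cannot be told apart.

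**Figure D5:**
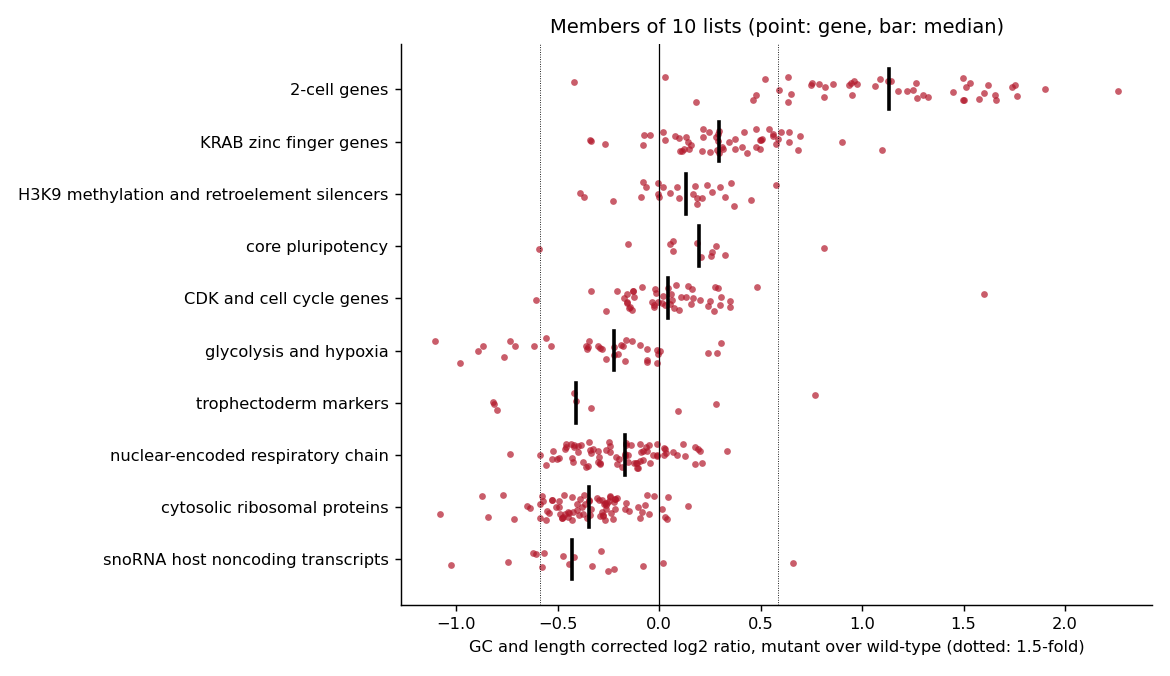
Corrected log2 ratio of mutant over wild-type rescue for each member (points) of 10 gene lists, with a vertical bar at each list's median and dotted lines at 1.5-fold. The 2-cell genes sit to the right with 42 of 48 past the fold, and the glycolysis and trophectoderm lists lie left of 0 in most members.

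Signalling genes were read by their roles. In the FGF-ERK pathway, which moves ESCs out of naive pluripotency, none of 15 transducers was called. Over the pathway's 38 members 6 were called lower (15.8%, against 10.3% of members) and 3 higher (7.89%, against 7.59%). After the correction 5 were called lower and 3 higher, where 6.57% and 5.97% of members were. Of 17 targets and feedback genes 4 were called lower and 2 higher. The lower ones were immediate early genes, *Fos* with 3623, 1323, 2551 and 829 reads, *Ier3* with 572, 441, 954 and 228, *Junb* with 1336, 1234, 1729 and 810 and a ratio of -1.04 (-1.22 to -0.87), and *Jun* at -0.72. The higher ones were *Myc*, with 286, 861, 452 and 765 reads and a ratio of 0.81 (0.57 to 1.05), and *Spry4*, a feedback inhibitor, at 0.59.

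In the Wnt pathway 3 of 34 members were called higher (8.82%, against 7.59% of members) and 2 lower (5.88%, against 10.3%). After the correction 4 were called higher and 1 lower. Among those called higher before it were *Lef1*, a nuclear partner of beta-catenin (60, 284, 78 and 219 reads), and the feedback target *Axin2* (347, 985, 531 and 918), the latter at 0.84 (0.62 to 1.06). The ligand *Wnt7b* was lower at -1.44 (-2.11 to -0.82). In the Notch list 3 of 16 members were called higher (18.8%, against 7.59% of members), and 4 after the correction. The ligand *Jag1* had 238, 426, 261 and 529 reads, a ratio of 1.07 (0.76 to 1.38), the ligand *Dll1* 78, 263, 101 and 201, a ratio of 1.04, and the coactivator *Maml2* a ratio of 1.52 (0.75 to 2.37). The ligand *Jag2* stood at -0.55, and *Dll3* and *Dll4* were under the count minimum, with 21 and 9 reads in the wild-type rescue and 11 and 2 in the mutant. Of 30 Nodal, TGF-beta and BMP genes 3 were called higher, where 7.59% of members were, and 2 lower (6.67%, against 10.3%). The secreted inhibitors *Fst* (1.47, 0.90 to 2.08) and *Lefty1* (0.89, 0.65 to 1.13) were higher, and *Id1*, a BMP target, was lower at -0.80. After the correction 3 of these genes were called higher and none lower, so *Id1* was no longer called. In the Hippo pathway *Amot* (1.03) and the kinase gene *Lats2* (0.75) were higher, and *Axl* (-1.18) and the DNA-binding partners *Tead3* (-0.71) and *Tead4* (-0.67) were lower. The Hippo shares, 7.41% higher and 11.1% lower, were near those of all members, and neither *Tead3* nor *Tead4* was still called after the correction. Of 14 LIF-STAT3 genes 3 were called lower (21.4%, against 10.3% of members), and 2 after the correction, led by *Socs3*, the feedback inhibitor induced by LIF, with 5127, 4478, 6154 and 3292 reads and a ratio of -0.85 (-0.94 to -0.77).

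Glycolysis and hypoxia-responsive genes were lower in 32 of 37 cases and called lower in 9 (24.3%, against 10.3% of members), with a median of -0.32. After the correction the median was -0.22 and 8 were called lower. *Vegfa*, the angiogenic growth factor gene, had 1889, 1168, 2469 and 1117 reads, a ratio of -1.10 (-1.24 to -0.95) and a corrected value of -1.10. *Adm*, the gene of the vasodilator adrenomedullin, had 202, 105, 269 and 112 reads and a ratio of -1.21, and *Aldoc*, an aldolase, 1112, 731, 1527 and 764 and a ratio of -0.95. *Gapdh* was among the few that were higher, at 0.19. *Pkm*, the most abundant of the list, had a ratio of -0.32. For *Vegfa*, *Adm* and *Aldoc* the wild-type rescue was above the scrambled control and the mutant rescue below it.

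Among 23 genes of amino-acid supply and ATF4 stress, 2 were called higher (8.7%, against 7.59% of members) and none lower. After the correction 2 were called higher and 1 lower. Before it the called genes were *Slc7a11* and the arginine transporter *Slc7a3*, the latter with 2311, 4213, 2664 and 4017 reads and a ratio of 0.64 (0.54 to 0.74). *Ddit3* and *Trib3*, common reporters of this stress response, were at -0.53 and -0.48. No gene of sterol or fatty acid synthesis was called out of 34. Of 24 p53 targets 4 (16.7%, against 7.59% of members) were called higher, led by *Perp* (1257, 2438, 1373 and 2252 reads, 0.76), and 3 (12.5%, against 10.3%) lower, led by *Ddit4* (3458, 3411, 5226 and 2527 reads, -1.0). The correction left 2 higher and 1 lower. Of 49 cell cycle genes *Ccnd2*, *Rb1* (0.81) and *Cenpe* (0.59) were called higher and none lower, a share of 6.12% beside the 7.59% of members. After the correction *Ccnd2* was called higher and *Cdkn1b* lower.

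Imprinted genes had 4 of 27 called higher (14.8%, against 7.59% of members) and 3 lower (11.1%, against 10.3%), and 2 each way after the correction. *Mest* had 2714, 5173, 2866 and 5210 reads, a ratio of 0.91 (0.82 to 1.01). *Meg3*, a noncoding RNA on chromosome 12, had 11012, 9510, 12969 and 7148, a ratio of -0.81 (-0.87 to -0.75), and *Phlda2* stood at -0.91. Of 22 germline genes *Stra8*, *Sycp3* and *Rhox5* were called lower (13.6%, against 10.3% of members), the first with 2011, 1300, 1945 and 1019 reads and a ratio of -0.88 (-1.04 to -0.73), and *Tdrd1* was called higher at 1.03. Interferon and RNA-sensing genes had 2 of 17 called, *Ifit2* (0.77) and *Ddx58* (0.62), both higher (11.8%, against 7.59% of members), and none after the correction.

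Read as classes and beside the knockdown, which has no library in common with the rescues, 466 of the 804 genes called higher after the correction (58.0%) were also called higher in shYthdf2+EV over shScram+EV, where 8.8% of members were, and 20 were called lower there. Of the 885 called lower, 426 (48.1%, against 7.92% of members) were called lower on knockdown and 51 higher. The respective shares before the correction were 50.6% of 1062 and 37.1% of 1440. A broad form of this relation between the library pairs was known when the comparison was chosen. Both pairs also share the split in Y-linked reads and the shift of chromosome 12, and the part of these in the shared calls was not tested.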

How the data were processed

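Poly(A)+ RNA of E14 ESCs was sequenced as stranded, paired-end libraries, 1 per group. The deposited values are read counts per gene. The authors made them with featureCounts 2.0.3, per the file headers, against mm39 RefSeq exons summed by gene, without strand, counting reads and not pairs, and leaving out reads placed at several sites. The submitters' processing notes name fastp 0.19.4, HISAT2 2.2.1, DESeq2 1.40.2 and mm10, a build other than that of the header. The methods state replicates, and the labels give 1 library per group.

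Library sizes were scaled by TMM (edgeR 4.0.16, R 4.3.3), and log2 ratios took a prior count of 0.5. Intervals are 95% Clopper-Pearson on read pairs (reads divided by 2). No test was made. Members and all 41 lists were chosen with earlier results of these data known. GC content, junctions and motifs came from GENCODE vM21 (mm10) where symbol and chromosome matched, for 13465 members (96.2%), and mitochondrial genes had no corrected value. Named genes were the YTHDF readers, the 15 largest ratios in each direction at a mean of 200 reads or more (clone names left out, 7 of them among the rises and 7 among the falls), the same by the corrected ratio, and in each list up to 4 of the largest ratios, up to 4 of the most abundant genes and the genes of central roles. The scripts were checked on simulated data. Alternatives were DESeq2 1.42.0 size factors, total and upper-quartile scaling, 5 as the prior count, 10 or 200 as the lowest mean count, a fold of 2, the correction, summed counts, and leaving out chromosomes 12, X, Y and mitochondrial.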

Additional observations from a re-analysis of the deposited data

How the results depend on the processing

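The alternatives were run on 38 genes, those named by the largest ratios and the YTHDF readers, and on the list medians. None of these past 1.5-fold changed direction. Smaller list medians could change sign under the correction, as the values below show for writers and erasers, the proteasome and SR and hnRNP factors. Other alternatives did so as well. With 10 as the lowest mean count, mesoderm and neural markers went from 0.355 to -0.152. With 200, feeder markers went from 0.338 to -0.333, the value of 1 gene, and formative and primed genes from 0.137 to -0.023. Counts of called genes depended on the filter and fold. With 10 as the lowest mean count, 2266 genes were higher and 2762 lower, with 200, 550 and 747, and at a fold of 2, 321 and 392. The correction left 885 lower. Under DESeq2 size factors, total counts, upper-quartile scaling and a prior count of 5, all 38 named values stayed within their counting intervals. The median of all members lay between -0.036 and 0.003. For the 41 list medians the interval was another one, drawn from the spread of the members, which are not replicates. All 41 stayed within it, but for the 4 feeder genes it ran from the lowest to the highest member (-0.33 to 0.84). Short lists could thus hardly leave it, and no conclusion is drawn from this. The share of calls that were higher ran up to 43.8% over the scalings, around 42.4%, was lowest under upper-quartile scaling (969 higher and 1581 lower) and was 47.6% under the correction. The correction moved list medians to -0.10 for writers and erasers, 0.046 for CCR4-NOT, -0.35 for cytosolic and -0.028 for mitochondrial ribosomal proteins, -0.17 for the respiratory chain, 0.016 for the proteasome, -0.12 for SR and hnRNP factors, -0.22 for glycolysis and hypoxia and 0.29 for KRAB genes. It moved *Ythdf2* to -0.24, and 9 of 37 named values by more than counting error. Ratios of summed counts were -0.54 for cytosolic ribosomal proteins, -0.28 for the respiratory chain and -0.056 for mitochondrially encoded genes. The Spearman coefficient with GC content was -0.394 with 10 as the lowest mean count and -0.495 with 200, and that with length 0.247 and 0.344. Mitochondrial genes had no value under the correction or without their chromosome. The limit to named protein-coding genes, chosen after seeing the data, took the share called higher with fewest junctions from 11.6% to 7.73%. Beyond the construction of each alternative, the cause was not tested. No paired analysis was possible because each group had 1 library and no replicate number. Depth limited genes near the minimum, while replication, absent here, limited all.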

Other observations

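The genes below were chosen after their values were seen, and lie outside the lists or add to them. *Dpysl3*, a relative of *Crmp1*, had 383 reads in the scrambled control, 1519 in the knockdown, 588 in the wild-type rescue and 1404 in the mutant rescue, a log2 ratio of 1.30 (1.11 to 1.51). *Robo1*, an axon guidance receptor, had 576, 2031, 906 and 1992, a ratio of 1.19, and *Neurod1*, a neurogenic factor, 166, 475, 170 and 395, a ratio of 1.26 (0.89 to 1.65). *Plxdc2* and *Arhgef26* had ratios of 1.42 and 1.47. The summed mesoderm and neural markers were also higher with the mutant, at 103 against 73.7 CPM, most of it from *Tubb3*, while *Pax6* had 126 and 136 reads and *Sox1* 164 and 117. Among genes of secreted signals and matrix, *Vcan* had 983, 2122, 1046 and 2266 reads, a ratio of 1.16, and *Notum*, which switches off Wnt proteins, 514, 1340, 804 and 1352, a ratio of 0.80.

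*Tjp3*, a tight junction gene, was lower with 347, 188, 457 and 186 reads and a ratio of -1.24, and *Tinagl1* with 1182, 655, 1423 and 547 and a ratio of -1.33. The X-linked *Xlr3b*, *Xlr5a* and *Xlr5c*, a family of similar copies, had ratios of -1.04, -1.09 and -1.22. *Hspb8*, a small heat shock protein gene, had 1232, 542, 1177 and 520 reads and a ratio of -1.13. *Tsix* had 68, 290, 88 and 273 reads, a ratio of 1.68, but it is antisense to *Xist* and the counting did not use strand, so these RNAs cannot be told apart. *Neat1*, the RNA of paraspeckles, had 3234, 2913, 4177 and 2263 reads, a ratio of -0.84.

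A few pseudogenes had a pattern of their own. *Gm3756* had 197 reads in the scrambled control, 1803 in the knockdown, 1938 in the wild-type rescue and 230 in the mutant rescue, a ratio of -3.02 (-3.32 to -2.75), and *Rps10-ps1*, *Gm10335* (391, 977, 994 and 268) and *Gm17828* (179, 485, 407 and 140) were likewise low in the scrambled control and mutant rescue and high in the other libraries. *Gm3226* was the reverse, with 2080, 878, 833 and 2053 reads and a ratio of 1.35. In these pseudogenes the libraries paired as scrambled with mutant and knockdown with wild-type, a pairing that the groups do not name. *Slc7a11* also stood apart, since the wild-type rescue alone was low, at 13 reads.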
